A study of Mus musculus with 3 samples.

Results

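The collagen chain genes are described here: every feature of the deposited count matrix whose symbol is Col, a number, the letter a and a number, with nothing after it. The rule took 44 of 32287 features. By the kind of assembly that their products form, 11 are fibrillar chains (types I, II, III, V, XI, XXIV and XXVII), 8 are basement membrane chains (types IV, XV and XVIII), 6 are chains of the beaded filaments of type VI, and 19 are other chains. In the cells analysed, 27 of the 44 genes had at least 50 UMIs (molecular tags, so that copies of 1 captured transcript are counted once) and 17 had fewer, of which 2 had none.

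The series examined the cell makeup of the mouse uterus in early pregnancy. Uteri of females housed to 8 weeks of age and taken at pregnancy day 7.5 were dissociated with trypsin into single cells, and a droplet kit that reads 3′ ends was used, as the labels' protocols state. Of 3 single-cell samples, 1 was analysed; its labels give neither a genotype nor a strain, nor the number of females. The other 2, of the genotypes Prl8a2icre/+ Sun1-GFPLsL/+ and Sun1-GFPLsL/+, are not analysed here. Because a single library was analysed and its cells do not stand in for animals, classes of cells are compared without a test, and every interval given is a 95% counting interval that covers counting error only.

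Collagens are the main fibrous proteins of the extracellular matrix, and each molecule is a helix of chains built from repeats of glycine and any pair of other residues (Gly-X-Y). Fibrillar chains form the fibrils that carry tension in connective tissue, type IV chains form the sheet under epithelia and around vessels, and type VI chains form beaded filaments near cell surfaces. Around an implanted mouse embryo the endometrial stroma turns into decidua, whose rounded cells lay down a basement membrane-like coat while the fibrils between them are remodelled.

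Several collagen genes lie side by side, and the sequences between or before them are shown because those neighbours had like or unlike patterns across cell groups. In the GENCODE M21 annotation of GRCm38, Col4a1 (chr8:11198423-11312826, minus strand) and Col4a2 (chr8:11312805-11449287, plus strand) point away from each other, and their first exons overlap, so no untranscribed bases lie between them and no sequence is shown. Col4a3 (chr1:82586921-82722059, plus strand) and Col4a4 (chr1:82448423-82586849, minus strand) are also head to head, with 71 bases between them. Col4a5 (chrX:141475385-141689234, plus strand) and Col4a6 (chrX:141165403-141474076, minus strand) are head to head with 1308 bases between them, of which the 150 bases nearest to each gene are shown. Col6a1 (chr10:76708792-76726168) and Col6a2 (chr10:76595762-76623630) lie on the minus strand of the same chromosome with 85161 bases between them, and Col3a1 (chr1:45311538-45349706, plus strand) lies tail to tail with Col5a2 (chr1:45374321-45503282, minus strand). Each line below gives bases upstream of the gene's first GENCODE exon, read in the direction of the gene from the RefSeq promoter table (GRCm38.p6). Capitals mark the letters TATAAA, the core of a TATA box, or the GC box GGGCGG on either strand, and the letters CCAAT would be marked likewise.
Col4a3 and Col4a4, the whole gap, read towards Col4a4, chr1:82586850-82586920, minus strand: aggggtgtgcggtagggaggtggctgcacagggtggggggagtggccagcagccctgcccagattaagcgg
Col4a5, chrX:141475235-141475384, plus strand: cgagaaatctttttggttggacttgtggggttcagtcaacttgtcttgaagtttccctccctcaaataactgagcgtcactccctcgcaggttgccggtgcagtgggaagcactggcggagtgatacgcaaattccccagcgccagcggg
Col4a6, chrX:141474077-141474226, minus strand: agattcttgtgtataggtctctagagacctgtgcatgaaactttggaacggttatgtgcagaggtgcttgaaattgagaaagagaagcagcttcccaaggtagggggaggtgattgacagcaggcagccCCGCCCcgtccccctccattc
Col6a1, chr10:76726169-76726294, minus strand: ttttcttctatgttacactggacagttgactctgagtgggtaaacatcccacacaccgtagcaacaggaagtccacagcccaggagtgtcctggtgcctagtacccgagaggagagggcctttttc
Col6a2, chr10:76623631-76623780, minus strand: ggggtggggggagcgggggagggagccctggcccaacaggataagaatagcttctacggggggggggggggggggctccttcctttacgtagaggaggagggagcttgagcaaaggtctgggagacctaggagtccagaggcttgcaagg
Col3a1, chr1:45311388-45311537, plus strand: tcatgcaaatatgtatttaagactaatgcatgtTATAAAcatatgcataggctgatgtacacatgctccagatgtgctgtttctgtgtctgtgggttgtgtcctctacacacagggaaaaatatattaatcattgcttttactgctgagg

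Of these lines, the one before Col3a1 holds a TATAAA and the one before Col4a6 holds a GC box on the other strand. In the 250 bases before the RefSeq start, searched on both strands, a GGGCGG was found for 60% of the 35 collagen genes in the table and for 35.4% of all 27025 genes. A CCAAT was found for 37.1% of the collagen genes and 37.5% of all, and a TATAAA for 14.3% of both. These are matches of letters and not tested sites.

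The chain groups also differ in their predicted helices, translated from the longest reading frame of the GENCODE M21 transcripts. Among the fibrillar chains the longest unbroken stretch of Gly-X-Y triplets was 338 for Col1a1 and 344 for Col3a1, and 216 for Col24a1 and 217 for Col27a1, the shortest of the 11. In the basement membrane chains the longest stretch was 30 to 66 triplets, and the Gly-X-Y part was broken into 13 to 27 stretches of at least 3 triplets. The type VI chains had a longest stretch of 37 to 87 triplets within proteins of which 12.2% to 31.9% was in triplets.

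The library held 2775 barcodes, of which 1822 cells with 14689368 UMIs were kept. Their 21 clusters, built without the collagen genes, fell into 10 classes named by marker genes and called "-like" because the names rest on those markers alone. Decidual stroma-like cells (146 cells, median 6867 UMIs) had Tdo2 at 2416 CPM (counts of the gene per 1000000 UMIs of the class) and Dio3 at 591 CPM, while Prl8a2 was at 0.690 CPM and Prl3c1 at 0. The rest of their set were Gja1 at 961, Bmp2 at 284, Wnt4 at 153 and Cryab at 24.1 CPM. Wnt4 and Cryab were higher in mesothelium-like cells (207 and 195 CPM). Cryab was also higher in epithelium-like (140 CPM) and pericyte-like cells (75.7 CPM). Undifferentiated stroma-like cells (422 cells, median 3264 UMIs) had Dpt at 415 CPM against 5.52 CPM in decidual stroma-like cells, and Dcn at 404 against 137 CPM. Of the 10 markers of their set, 6 were higher in them than in decidual stroma-like cells, Pdgfra only slightly (821 against 733 CPM), and 4 were lower: Pi16 (7.15 against 32.4 CPM), Lum (33.8 against 46.9 CPM), Ogn (3.90 against 11.7 CPM) and Mfap4 (2.60 against 4.83 CPM). Mesothelium-like cells (89 cells, Upk3b at 1805 CPM) also had the highest level of the stromal marker Dcn, 11314 CPM. Of the same set, Ogn (1189 CPM), Lum (642 CPM) and Clec3b (194.5 CPM) were also highest in mesothelium-like cells. Fbln1 was at 190 CPM in undifferentiated stroma-like, 269 in mesothelium-like and 511 CPM in epithelium-like cells. Dpt, Serpinf1 and Pdgfra were highest in undifferentiated stroma-like cells, and Pi16 and Mfap4 in decidual stroma-like cells. The 33 pericyte-like cells had Rgs5 at 15757 CPM together with the smooth muscle markers Acta2 at 1187 CPM and Myh11 at 466 CPM, and Cnn1 at 3.98 CPM, so the class mixes markers of both kinds of mural cell. The 67 endothelium-like cells had Pecam1 at 1009 CPM and the lymphatic marker Lyve1 at 209 CPM. The other classes were epithelium-like (374 cells), phagocyte-like (271), NK and innate lymphoid-like (312), T cell-like (43) and B cell-like cells (23), and 1 cluster of 42 cells stayed unnamed.

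The 44 genes together gave 32088 UMIs, 0.218% of all. Fibrillar chains made up 56.9% of these, basement membrane chains 25.3%, type VI chains 13.4% and other chains 4.34%. Summed over all chains the level was 19959 CPM in pericyte-like, 7652 CPM in mesothelium-like, 6891 CPM in undifferentiated and 6133 CPM in decidual stroma-like cells. It was 4847 CPM in endothelium-like, 244 CPM in phagocyte-like and 131 CPM in epithelium-like cells. Lymphocytes, which are not known as a source of these chains and serve as the measure of free RNA, had 64.7 CPM (57.0 to 73.1), with 54.6 CPM in NK and innate lymphoid-like, 373 CPM in T cell-like and 91.9 CPM in B cell-like cells. The lymphocyte classes thus differed among themselves by more than counting error, and their median depths were 5828, 2637 and 1763 UMIs. These sums do not tell apart fewer cells with the RNA within a class from less of it in each cell.

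**Figure D1:**
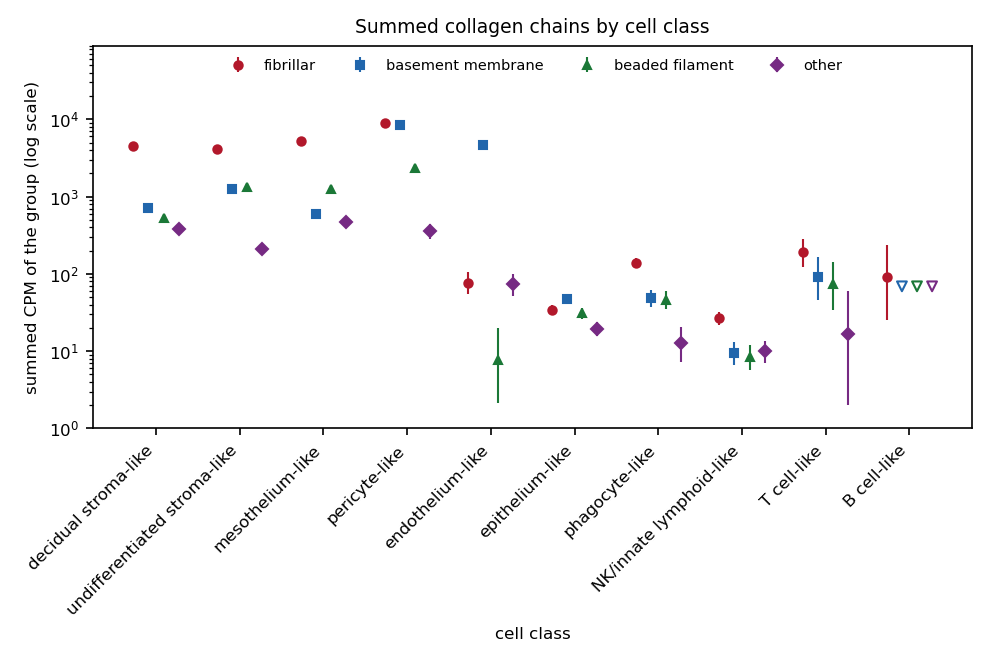
Summed level of each chain group (CPM, log scale) in the 10 cell classes. Points are sums over all cells of a class, bars are 95% counting intervals, and open triangles mark the limit that a count of 0 allows. Fibrillar chains stood between 4095 and 8908 CPM in the stromal, mesothelium-like and pericyte-like classes and at 190.7 CPM or less elsewhere, while basement membrane chains were also high in endothelium-like cells (4688 CPM).

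The makeup of the collagen UMIs differed between classes. Fibrillar chains gave 73.7% of the collagen UMIs of decidual stroma-like cells, 59.4% in undifferentiated stroma-like, 69.4% in mesothelium-like and 44.6% in pericyte-like cells, but 1.59% in endothelium-like cells. Basement membrane chains gave 96.7% of the collagen UMIs of endothelium-like cells, 41.9% in pericyte-like cells and 7.81% in mesothelium-like cells. Type VI chains gave 19.4% in undifferentiated stroma-like, 16.6% in mesothelium-like, 11.7% in pericyte-like and 8.72% in decidual stroma-like cells. Their share was 23.4% in epithelium-like cells, from 157 UMIs at 30.7 CPM. The 33 pericyte-like cells, 1.81% of all cells, held 15.6% of all collagen UMIs and 25.8% of those of basement membrane chains.

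**Figure D2:**
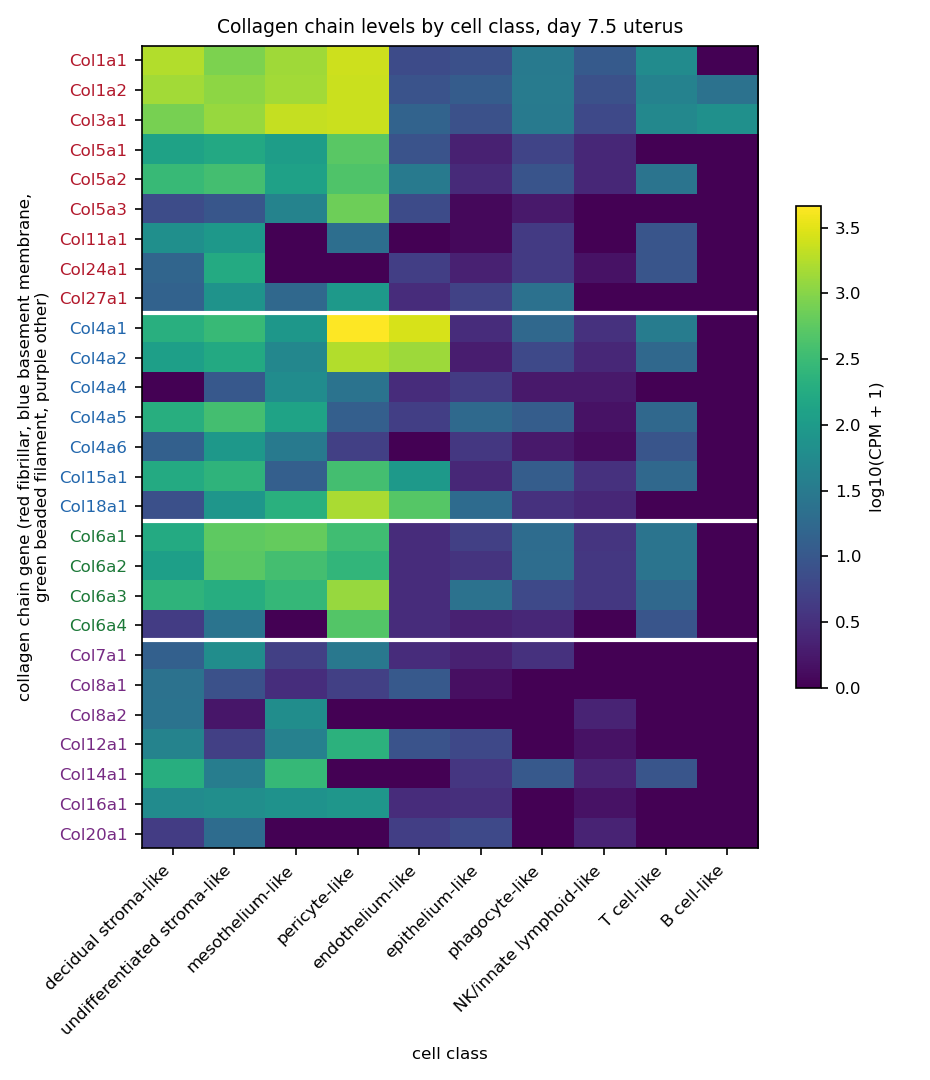
Levels of the 27 chains with at least 50 UMIs in the 10 classes, as log10(CPM + 1). Rows are genes ordered by chain group and columns are classes. Of the 27 genes, 15 were highest in the pericyte-like column, 7 in undifferentiated stroma-like, 4 in mesothelium-like and 1 in decidual stroma-like cells. The highest class was taken by level without its interval, as for Col3a1 (2318 CPM in pericyte-like against 2218 CPM in mesothelium-like cells). The pericyte-like class holds 33 cells, and no share over all genes is given beside these counts.

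The fibrillar chains were led by the chains of types I and III, the main fibrils of connective tissue. Col1a1 (ENSMUSG00000001506, chr11:94936224-94953042), the first chain of type I collagen, was at 2429 CPM in pericyte-like, 1744 in decidual, 1378 in mesothelium-like and 867 in undifferentiated stroma-like cells. It was at 58.0 CPM in T cell-like, 29.96 in phagocyte-like, 9.98 in NK and innate lymphoid-like, 6.84 in epithelium-like and 5.79 CPM in endothelium-like cells, and at 0 in B cell-like cells, where a count of 0 allows up to 68.9 CPM. The stromal, mesothelium-like and pericyte-like classes thus stood apart from all others. For shares at equal depth, cells of fewer than 2000 UMIs were left out and every other cell was reduced to 2000 UMIs. This left out 15 decidual, 111 undifferentiated stroma-like and 47 NK and innate lymphoid-like cells. Col1a1 then had a UMI in 84.0% of 131 decidual and 66.2% of 311 undifferentiated stroma-like cells, against 2.26% of 265 NK and innate lymphoid-like cells. Over all cells before thinning the shares were 94.5%, 72.0% and 8.33%, so both the cells and the depth differ.

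Col1a2 (chr6:4504814-4541544), the partner chain of type I, had the same order: 2361 CPM in pericyte-like, 1430 in decidual, 1424 in mesothelium-like and 1094 CPM in undifferentiated stroma-like cells. The UMIs of Col1a1 per UMI of Col1a2 were 1.22 (1.15 to 1.29) in decidual and 0.793 (0.737 to 0.852) in undifferentiated stroma-like cells. The ratio varied as much between the clusters within each class: it was 1.45 (1.34 to 1.56) and 0.949 (0.865 to 1.04) in the decidual clusters, and 0.872 (0.804 to 0.946) and 0.543 (0.459 to 0.641) in the undifferentiated ones. An interval of each class overlapped one of the other, so the ratio did not separate the classes.

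Col3a1, the chain of type III collagen, which forms thin fibrils in extensible tissues, was highest in pericyte-like (2318 CPM) and mesothelium-like cells (2218 CPM). It was at 1249 CPM in undifferentiated and 817 CPM in decidual stroma-like cells. Its UMIs per UMI of Col1a1 were 0.468 (0.437 to 0.502) in decidual, 0.954 (0.850 to 1.07) in pericyte-like, 1.44 (1.34 to 1.54) in undifferentiated and 1.61 (1.46 to 1.77) in mesothelium-like cells. Decidual stroma-like cells therefore had the lowest proportion of type III to type I message among these 4 classes.

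Type V chains, which nucleate and limit the width of type I fibrils, were present in the stromal, mesothelium-like and pericyte-like classes. Col5a2 was at 454 CPM in pericyte-like, 369 in undifferentiated, 295 in decidual and 122 CPM in mesothelium-like cells, and Col5a1 at 526, 161, 128 and 108 CPM in the same order. Col5a3 (chr9:20770050-20815067), the least widespread type V chain, was at 705 CPM in pericyte-like and 42.1 CPM in mesothelium-like cells, and at 8.45 CPM or less in each other class. Pericyte-like cells held 78.7% of all Col5a3 UMIs in the library.

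The remaining fibrillar chains were mostly stromal. Col24a1 (chr3:145292472-145552011), a minor fibrillar chain with a short helix, was at 172 CPM in undifferentiated and 14.5 CPM in decidual stroma-like cells. It had 0 UMIs in both mesothelium-like and pericyte-like cells, where a count of 0 allows up to 6.02 and 11.9 CPM. Undifferentiated stroma-like cells held 88.0% of its 301 UMIs. Col11a1, a chain of the cartilage-type fibrils that type V resembles, was at 89.1 CPM in undifferentiated and 64.8 CPM in decidual stroma-like cells, against 19.9 CPM in pericyte-like cells. Col27a1 was at 91.6 CPM in pericyte-like, 76.1 in undifferentiated and 13.1 CPM in decidual stroma-like cells, and at 22.1 CPM in phagocyte-like cells. Of the other fibrillar chains, Col11a2 had 33 UMIs and Col2a1, the main cartilage chain, had none, which allows up to 0.204 CPM over all kept cells.

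Among the basement membrane chains, Col4a1 and Col4a2, which together form the common type IV molecule, were highest in mural and endothelial cells. Col4a1 was at 4607 CPM in pericyte-like and 2749 CPM in endothelium-like cells, followed by 289 CPM in undifferentiated and 201 CPM in decidual stroma-like cells. It was at 86.2 CPM in mesothelium-like, 33.2 in T cell-like, 16.6 in phagocyte-like, 2.36 in NK and innate lymphoid-like and 1.96 CPM in epithelium-like cells. Col4a2 was at 1740, 1338, 168 and 114 CPM in the first 4 of these classes and at 0.977 CPM in epithelium-like cells. With 2000 UMIs per cell, Col4a1 had a UMI in 96.7% of pericyte-like and 85.5% of endothelium-like cells, and in 0.755% of NK and innate lymphoid-like cells.

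The levels of these head-to-head neighbours rose and fell together over the classes, though not in a fixed proportion. The UMIs of Col4a1 per UMI of Col4a2 were 1.72 (1.47 to 2.01) in undifferentiated stroma-like, 1.76 (1.45 to 2.14) in decidual stroma-like, 1.79 (1.06 to 3.09) in mesothelium-like, 2.05 (1.88 to 2.25) in endothelium-like and 2.65 (2.37 to 2.96) in pericyte-like cells. The interval in pericyte-like cells lay above those in both stromal classes and in endothelium-like cells. Across the 20 named clusters Pearson's r of their log levels was 0.993; the points share a library, and the clusters differ in depth.

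Col4a5 and Col4a6, the X-linked chains of the type IV network found under many epithelia and around smooth muscle, followed another pattern. Col4a5 was at 363 CPM in undifferentiated stroma-like, 197 in decidual stroma-like, 130 in mesothelium-like and 16.8 CPM in epithelium-like cells, but at 11.9 CPM in pericyte-like and 3.86 CPM in endothelium-like cells. Its UMIs per UMI of Col4a1 were 1.26 (1.11 to 1.43) in undifferentiated stroma-like and 0.00259 (0.000534 to 0.00760) in pericyte-like cells. Stromal cells thus had both pairs of type IV chains, vessel cells nearly only the Col4a1 and Col4a2 pair, and epithelium-like cells had low counts of both, with 86 UMIs of Col4a5 and 10 of Col4a1, whose 1.96 CPM was below the 3.27 CPM of the lymphocytes. Col4a6 was at 89.1 CPM in undifferentiated stroma-like, 30.1 in mesothelium-like and 12.4 CPM in decidual stroma-like cells, and undifferentiated stroma-like cells held 72.5% of its UMIs.

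**Figure D3:**
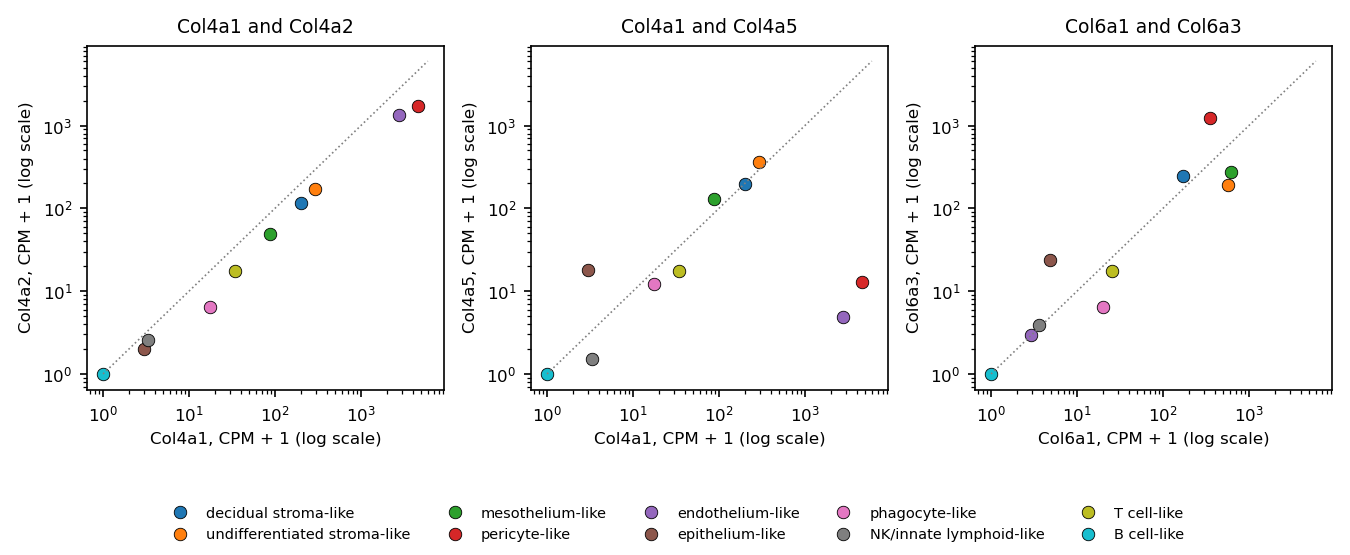
Levels of pairs of chains (CPM + 1, log scales) in the 10 classes, 1 point per class, with the line of equal levels dotted. Col4a1 and Col4a2 lie along 1 line, Col4a5 falls far below Col4a1 in pericyte-like and endothelium-like cells, and Col6a3 exceeds Col6a1 in pericyte-like (1250 against 350 CPM) but not in undifferentiated stroma-like cells (192 against 576 CPM).

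Col4a3 and Col4a4, the chains of the kidney-type type IV network, had 36 and 72 UMIs. Col4a4 was highest in mesothelium-like cells, at 60.2 CPM, and was at 0 in decidual stroma-like cells, where a count of 0 allows up to 2.07 CPM. Col4a3 was also highest there, at 20.1 CPM from 10 UMIs.

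Col15a1 and Col18a1 encode related chains that carry a cleavable endostatin-like end and sit at the outer and inner face of basement membranes. Col18a1 (chr10:77052178-77166548) was at 1585 CPM in pericyte-like, 504 in endothelium-like, 211 in mesothelium-like and 81.9 CPM in undifferentiated stroma-like cells, and at 6.90 CPM in decidual stroma-like cells. Col15a1 was at 370 CPM in pericyte-like, 239 in undifferentiated stroma-like, 171 in decidual stroma-like and 90.7 CPM in endothelium-like cells, and at 12.0 CPM in mesothelium-like cells. The UMIs of Col18a1 per UMI of Col15a1 were 0.0403 (0.0191 to 0.0754) in decidual stroma-like and 17.5 (7.78 to 48.8) in mesothelium-like cells, with 5.55 (4.06 to 7.75) in endothelium-like cells. Stromal cells thus had more UMIs of Col15a1 than of Col18a1, and the other classes with at least 100 UMIs of both together had the reverse.

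Type VI collagen is built from the products of Col6a1 and Col6a2 with a further chain, most often that of Col6a3. Col6a1 was at 622 CPM in mesothelium-like, 576 in undifferentiated stroma-like, 350 in pericyte-like and 170 CPM in decidual stroma-like cells. Col6a2 was at 367, 534, 259 and 117 CPM in the same classes. Across the 20 named clusters r of their log levels was 0.995. It was 0.973 for Col1a1 and Col1a2 and 0.956 for Col5a1 and Col5a2, pairs on different chromosomes. For the head-to-head neighbours Col4a5 and Col4a6 it was 0.868, so a high r was not particular to neighbours. Col6a3 had an r of 0.914 with Col6a1 but differed from both in the order of classes. It was at 1250 CPM in pericyte-like, 277 in mesothelium-like, 243 in decidual and 192 CPM in undifferentiated stroma-like cells. In epithelium-like cells it was at 22.9 CPM from 117 UMIs. Its UMIs per UMI of Col6a1 were 3.57 (2.81 to 4.57) in pericyte-like, 1.43 (1.21 to 1.68) in decidual stroma-like and 0.334 (0.292 to 0.382) in undifferentiated stroma-like cells. The decidual value joined unlike clusters, at 1.91 (1.54 to 2.37) in the cluster with more Dio3 and 0.860 (0.650 to 1.14) in the other. Both undifferentiated clusters were lower, at 0.309 and 0.429. Col6a4, an alternative to Col6a3, was at 478 CPM in pericyte-like and 24.7 CPM in undifferentiated stroma-like cells, and pericyte-like cells held 69.4% of its 173 UMIs. Col6a5 and Col6a6 had 4 and 13 UMIs.

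Of the other chains, 7 of 19 reached 50 UMIs. Col14a1 (chr15:55307750-55520803), which binds to the surface of fibrils, was at 287 CPM in mesothelium-like, 197 in decidual and 35.1 CPM in undifferentiated stroma-like cells. It had 0 UMIs in pericyte-like and endothelium-like cells, which allows up to 11.9 and 5.79 CPM. Col12a1, a related fibril-associated chain, was at 227 CPM in pericyte-like, 42.1 in decidual stroma-like, 40.1 in mesothelium-like and 3.90 CPM in undifferentiated stroma-like cells. Col16a1, another such chain, was nearly even over the stromal, mesothelium-like and pericyte-like classes, from 57.2 to 83.6 CPM, and at 2.15 CPM or less elsewhere.

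Several of the less abundant chains had most of their UMIs in few classes. Col7a1, the chain of anchoring fibrils, was at 61.8 CPM in undifferentiated stroma-like and 27.9 CPM in pericyte-like cells. Col8a2, a chain of short networks under endothelia and other linings, was at 62.2 CPM in mesothelium-like and 23.5 CPM in decidual stroma-like cells, and its partner Col8a1 at 22.8 CPM in decidual stroma-like cells. Col20a1 had 29 UMIs in undifferentiated stroma-like and 28 in epithelium-like cells. Below 50 UMIs, 21 of the 23 UMIs of Col13a1, a membrane-spanning chain, lay in endothelium-like cells, and 15 of the 29 UMIs of Col9a3 lay in NK and innate lymphoid-like cells. That lymphoid class held 25.9% of all UMIs, and the level of Col9a3 was higher in mesothelium-like cells (8.02 against 3.94 CPM). Col22a1, Col23a1 and Col26a1 had 14, 16 and 28 UMIs, Col9a1, Col9a2, Col10a1, Col17a1, Col19a1 and Col25a1 had 1 to 3, and Col28a1 had none.

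The first comparison asked which chains the stroma had more of than the other cells of the uterus. Fibrillar chains summed to 4300 CPM in the stromal classes together and 465 CPM in all other named classes, a ratio of 9.25 (8.96 to 9.55). Among cells of at least 2000 UMIs, each thinned to that depth, the ratio was 5.69 (5.35 to 6.04). Type VI chains summed to 947 and 127 CPM, a ratio of 7.44 (6.98 to 7.92). Of 27 chains with at least 50 UMIs over both sides, 21 were at least 2-fold higher in stroma with an interval that excluded 1, where 17.6% of all 12178 genes measured were. The largest ratios of these 27 belonged to Col11a1 at 81.7 (44.8 to 166) and Col24a1 at 74.2 (44.2 to 134). The median log2 ratio was 3.02 over the 27 chains and −0.04 over all genes. The 1 chain at least 2-fold lower in stroma, against 22.6% of all genes, was Col5a3, at 7.36 against 17.5 CPM. Without pericyte-like and mesothelium-like cells on the other side no chain was lower, and no share over all genes is given for that setting. The basement membrane sum was 2.21-fold higher in stroma (2.12 to 2.32), with Col4a1 at 247 against 230 CPM and Col18a1 at 45.5 against 74.6 CPM. Leaving out the pericyte-like and mesothelium-like cells raised the fibrillar ratio to 90.1 (82.5 to 98.6), so most fibrillar UMIs outside the stroma lay in those classes.

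Single classes were then set against all other named cells. In pericyte-like cells 19 of 27 chains were at least 2-fold higher, against 10.8% of all genes, led by Col5a3 at 211-fold (152 to 296) and Col6a4 at 130-fold (93.0 to 182). At least 2-fold lower there were 3 chains, against 11.6% of all genes: Col24a1, Col14a1 and Col4a5, with 0, 0 and 3 UMIs. Col4a6 with 1 UMI, and Col8a2 and Col20a1 with 0, had intervals that included 1. In mesothelium-like cells 15 of 27 chains were higher and 6 lower, against 14.8% and 16.4% of all genes, with Col8a2 at 21.9-fold (13.3 to 36.0), Col4a4 at 20.2-fold (12.2 to 33.1) and Col14a1 at 10.9-fold (8.93 to 13.3). In endothelium-like cells 16 of 27 were lower, against 15.1% of all genes, among them 8 fibrillar and all 4 measured type VI chains. There 3 of 27 were higher, against 13.8% of all genes, and these were Col4a1 (19.6-fold, 18.3 to 20.9), Col4a2 (20.8-fold, 18.8 to 23.0) and Col18a1 (9.57-fold, 8.28 to 11.03). The basement membrane sum there was 4688 against 404 CPM, a ratio of 11.6 (11.1 to 12.2). In epithelium-like cells 25 of 27 chains were at least 2-fold lower, against 27.9% of all genes, the exceptions being Col4a4 and Col20a1. Pericyte-like cells set directly against endothelium-like cells had 115-fold more fibrillar message (84.5 to 162) but 1.78-fold more basement membrane message (1.68 to 1.89). The pericyte-like values rest on 33 cells of 1 cluster.

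The second comparison set decidual against undifferentiated stroma-like cells. Both are groups named by markers within a single library, so a change over time was not followed. The summed fibrillar level was close, 4518 against 4095 CPM, a ratio of 1.10 (1.07 to 1.14), while basement membrane chains summed to 706 against 1249 CPM, a ratio of 0.565 (0.523 to 0.610). Type VI chains summed to 534 against 1335 CPM, a ratio of 0.4004 (0.368 to 0.435), and the other chains to 375 against 213 CPM, a ratio of 1.76 (1.54 to 2.03). Of 21 chains with at least 50 UMIs over both classes, 3 were at least 2-fold higher in decidual stroma-like cells, where 8.59% of all 7464 genes measured were. At least 2-fold lower were 7 chains, where 18.4% of all genes were. The median log2 ratio was −0.52 over the 21 chains and −0.31 over all genes.

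The chains that stood higher in decidual stroma-like cells were 1 chain of type I and the fibril-associated pair Col12a1 and Col14a1. Col1a1 was at 1744 against 867 CPM, a ratio of 2.01 (1.88 to 2.15), just past the 2-fold limit. Col14a1 was at 197 against 35.1 CPM, a ratio of 5.598 (4.17 to 7.63). Col12a1 was at 42.1 against 3.90 CPM, a ratio of 10.8 (4.68 to 30.5) from 61 and 6 UMIs.

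The lower chains came from every chain group. The minor fibrillar chains Col24a1 and Col27a1 were 11.9-fold (7.62 to 19.5) and 5.81-fold (3.56 to 9.99) lower. Of the basement membrane chains, Col18a1 was 11.9-fold lower (6.25 to 25.4) and Col4a6 7.18-fold lower (4.37 to 12.5), while Col4a5, its neighbour, was 1.85-fold lower (1.60 to 2.14) and so short of the limit. Col6a2 was 4.58-fold (3.88 to 5.44) and Col6a1 3.38-fold lower (2.93 to 3.91), whereas Col6a3 had a ratio of 1.26 (1.08 to 1.48). Col7a1 was 4.98-fold lower (2.98 to 8.75).

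The other 11 measured chains were within 2-fold. Col1a2 had a ratio of 1.31 (1.22 to 1.40), Col3a1 of 0.654 (0.608 to 0.703), Col5a1 of 0.794 and Col5a2 of 0.799. Col4a1 and Col4a2 had ratios of 0.696 (0.598 to 0.808) and 0.680 (0.556 to 0.829), and Col15a1 of 0.715 (0.606 to 0.842). Col16a1, at 57.2 against 64.4 CPM, had an interval that included 1 (0.656 to 1.20). Below the count limit, Col8a2 had 34 UMIs in decidual and 1 in undifferentiated stroma-like cells, and Col6a4 had 5 and 38.

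**Figure D4:**
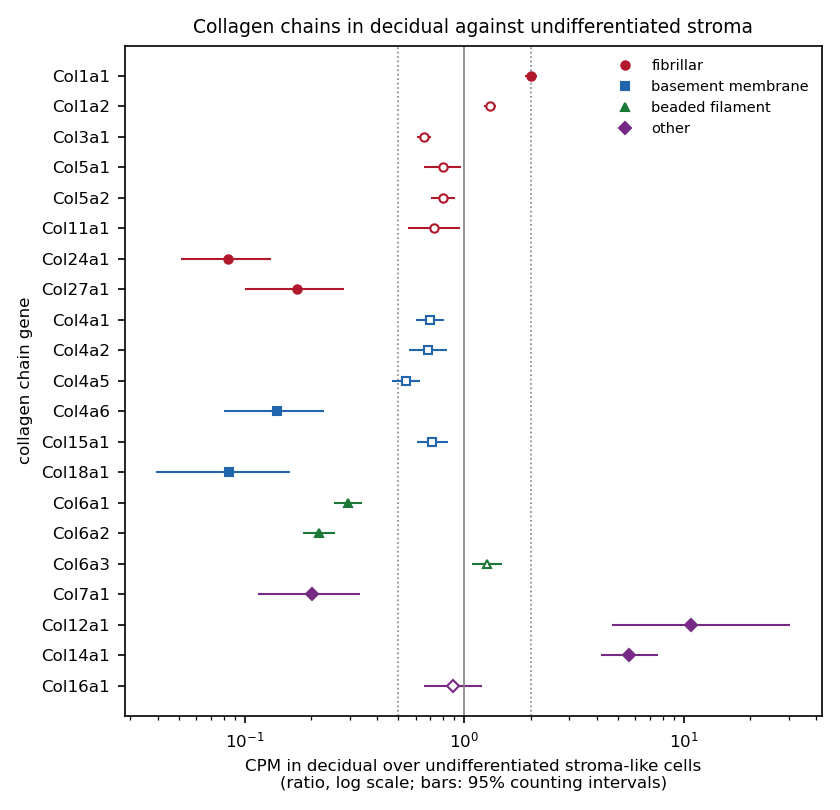
Ratio of CPM in decidual over undifferentiated stroma-like cells (log scale) for the 21 chains measured. Points are ratios, bars are 95% counting intervals, and filled points are at least 2-fold from 1, the dotted lines, with an interval that excludes 1. Filled points lie above 2 for Col1a1, Col12a1 and Col14a1 and below 0.5 for 7 chains.

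Depth and cell state moved with this comparison. The decidual cells had a median of 6867 UMIs and 12.2% mitochondrial UMIs, the undifferentiated cells 3264 UMIs and 4.33%. With at most 10% mitochondrial UMIs per cell, 49 decidual cells were left, the fibrillar ratio turned to 0.830 (0.794 to 0.867) and Col1a1 stood at 1.58 (1.47 to 1.71). Under that limit 1 chain was called higher in place of 3, with no share over all genes given beside it. The basement membrane ratio under that limit was 0.498 (0.451 to 0.550). Among cells of at least 2000 UMIs, each thinned to that depth, the fibrillar and basement membrane ratios were 1.32 (1.24 to 1.41) and 0.628 (0.535 to 0.734). With mitochondrial genes left out of the totals, the fibrillar ratio was 1.16 (1.12 to 1.20).

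Each stromal class held a pair of clusters, which show the spread within it. The decidual pair differed in the marker Dio3, at 861 CPM in 75 cells and 37.8 CPM in 71 cells, and the undifferentiated pair in depth, with medians of 4772 and 1949 UMIs over 227 and 195 cells. For all 10 chains counted as higher or lower, both decidual clusters lay on the same side of both undifferentiated clusters. These chains were picked by a difference between the same clusters summed, so this separation was in part built in. It was judged on levels without their intervals. Col1a1 was at 1670 and 1897 CPM in the Dio3-rich and Dio3-poor decidual clusters, and at 996 and 525 CPM in the deeper and shallower undifferentiated clusters. Col6a2 was at 91.3 and 168 CPM in the decidual and at 592 and 380 CPM in the undifferentiated clusters. Col18a1 was at 6.16 and 8.41 CPM against 93.1 and 52.3 CPM. Of the 11 chains within 2-fold, 4 were separated in the same way, Col1a2 and Col6a3 above and Col3a1 and Col4a5 below, and 7 overlapped. No share over all genes is given beside these counts of separated chains.

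**Figure D5:**
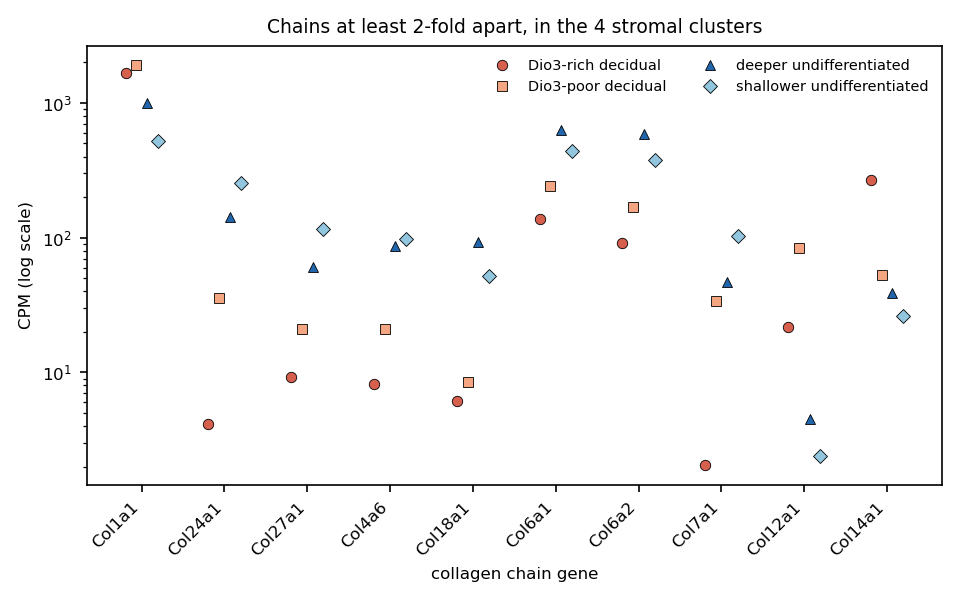
Levels (CPM, log scale) of the 10 chains at least 2-fold apart between the stromal classes, in each of the 4 stromal clusters, 1 point per cluster. For Col1a1, Col12a1 and Col14a1 both decidual points lie above both undifferentiated points, and for the other 7 chains below them. Col14a1 is 267 CPM in the Dio3-rich and 52.6 CPM in the Dio3-poor cluster.

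The decidual clusters also differed from each other. Col14a1 was 5.08-fold higher (3.36 to 7.99) and Col15a1 4.55-fold higher (2.98 to 7.26) in the Dio3-rich cluster, with Col15a1 at 230 against 50.5 CPM. These were 2 of 16 chains measured, where 21.5% of all genes were higher. Col11a1 was 12.8-fold lower there (7.06 to 25.0), at 13.3 against 170 CPM, Col12a1 3.90-fold lower (2.25 to 6.97) and Col4a2 2.31-fold lower (1.69 to 3.18), 3 of 16 where 6.75% of all genes were lower. Without the Dio3-poor cluster Col11a1 had a ratio of 0.150 (0.0778 to 0.265) to undifferentiated stroma-like cells, and without the Dio3-rich cluster Col14a1 had one of 1.497 (0.893 to 2.45). The decidual UMIs of Col11a1 thus lay mainly in the Dio3-poor cluster (81 of 94) and those of Col14a1 in the Dio3-rich one (260 of 285). Without the Dio3-rich cluster Col15a1 had a ratio of 0.211 (0.133 to 0.319) and Col7a1 one of 0.545 (0.299 to 0.931). The summed fibrillar ratio was 1.002 (0.963 to 1.04) without the Dio3-poor cluster and 1.31 (1.25 to 1.37) without the Dio3-rich one. The Dio3-poor cluster had a median of 13.5% mitochondrial UMIs and the Dio3-rich one 9.83%.

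Between the undifferentiated clusters fewer chains were at least 2-fold apart, while the summed levels differed about as much as between the decidual ones. None of 20 chains was at least 2-fold higher in the deeper cluster, where 9.37% of all genes were, and 1 was lower, where 3.08% of all genes were. This was Col7a1, at 46.5 against 102 CPM, 2.19-fold lower (1.43 to 3.35). The fibrillar sum was 1.30-fold higher in the deeper cluster (1.22 to 1.38), and the basement membrane sum 1.41-fold higher (1.26 to 1.57). In the Dio3-rich decidual cluster these sums were 1.31-fold (1.24 to 1.37) and 1.33-fold (1.17 to 1.51) lower than in the Dio3-poor one.

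Within a class the counts per cell were uneven. Thinned to 2000 UMIs, decidual stroma-like cells had 0 to 59 fibrillar UMIs with a median of 8, undifferentiated stroma-like cells 0 to 100 with a median of 7, and pericyte-like cells 1 to 54 with a median of 13. For Col1a1 the 13 decidual cells with most UMIs held 34.5% of the class total. For Col14a1, found in 21.4% of thinned decidual cells, the highest 13 cells held 65.9%. Endothelium-like cells had a median of 7 basement membrane UMIs (0 to 41) and pericyte-like cells of 14 (1 to 36), and the median in all epithelial, phagocyte-like and lymphocyte classes was 0.

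Mesothelium-like cells, the lining of the outer uterine surface, differed from undifferentiated stroma-like cells although both had a high fibrillar level. Of 20 chains measured, 2 were at least 2-fold higher, where 13% of all 6552 genes were: Col14a1 (8.17-fold, 5.93 to 11.4) and Col18a1 (2.57-fold, 1.96 to 3.36). At least 2-fold lower were 10 chains, where 15.7% of all genes were. Col24a1 and Col11a1, with 0 UMIs, were at least 28.6-fold and 14.8-fold lower by the limit of 3 UMIs in the class. Col15a1 was 19.9-fold lower (9.05 to 54.5). The fibrillar sum was 1.30-fold higher (1.24 to 1.36), and the type VI sum differed by less than its interval (0.951, 0.868 to 1.04).

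The genes that make, bind and degrade collagen were described from 4 lists with 58 genes. Of the collagen-making list (hydroxylases, chaperones, propeptide cleaving and crosslinking enzymes), 17 of 29 measured genes were at least 2-fold higher in stroma than in other cells and 3 were lower, where 17.6% and 22.6% of all genes were. Adamts3, which trims amino propeptides, and Lox, which crosslinks fibrils, were 52.8-fold (24.7 to 135) and 35.7-fold higher (26.8 to 48.3). Tll1 and Adamts14, both propeptide-cleaving proteases, were 15.3-fold (6.98 to 42.1) and 8.99-fold lower (4.06 to 24.8). In decidual against undifferentiated stroma-like cells, 5 of 24 of this list were higher and 1 was lower, where 8.59% and 18.4% of all genes were. Adamts3 was at 56.6 against 8.45 CPM, a ratio of 6.69 (3.703 to 13.1), and Fkbp14, a prolyl isomerase, at 55.2 against 11.7 CPM, a ratio of 4.71 (2.80 to 8.36). At the other end, Plod1, a lysyl hydroxylase, was 2.74-fold lower (1.93 to 3.96), and Lox was at 121 against 202 CPM, within the limit. Serpinh1, the collagen chaperone, was at 778 against 814 CPM, chosen here after its value was seen.

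Of the collagen receptors, 3 of 8 measured were at least 2-fold higher in stroma than in other cells and 3 were lower, beside 17.6% and 22.6% of all genes. Mrc2, which takes up collagen, was 19.5-fold (14.6 to 26.6) and Ddr2, a kinase receptor for fibrils, 9.60-fold higher (7.89 to 11.8), while Lair1, an inhibitory receptor of immune cells, was 55.8-fold (9.90 to 2213) and Itga2 5.16-fold lower (3.02 to 9.56). Between the stromal classes 2 of 6 were higher in decidual cells and 1 was lower, beside 8.59% and 18.4% of all genes, so the lower count is near the background. Itga1, which forms an integrin for type IV collagen, was at 286 against 32.5 CPM, a ratio of 8.80 (6.55 to 12.1), and Ddr1 at 37.9 against 7.80 CPM, a ratio of 4.86 (2.57 to 9.97). Ddr2 was 2.26-fold lower (1.79 to 2.87), and Mrc2 had a ratio of 1.30 (1.02 to 1.66).

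Of the genes that organise fibrils, 5 of 7 measured were higher in stroma than in other cells and none was lower, beside 17.6% and 22.6% of all genes. Bgn, a small proteoglycan, and Tnxb were 27.9-fold (23.6 to 33.3) and 11.3-fold higher (8.34 to 15.6), and Postn and Tgfbi had ratios of 1.19 (0.922 to 1.52) and 1.29 (1.14 to 1.46). In decidual cells 2 of 6 were higher and 0 lower, beside 8.59% and 18.4% of all genes. These were Fn1 at 646 against 216 CPM (2.99-fold, 2.64 to 3.40) and Sparc at 1207 against 544 CPM (2.22-fold, 2.04 to 2.41). Tnxb and Tgfbi had the lowest ratios, 0.525 (0.373 to 0.732) and 0.607 (0.484 to 0.758). Of the collagen-degrading list all 3 measured were higher in stroma, beside 17.6% of all genes: Mmp2 89.6-fold (63.3 to 131), Ctsk 18.8-fold (11.04 to 33.8) and Mmp14 7.54-fold (6.89 to 8.26). Mmp2, a gelatinase, was 5.34-fold lower in decidual than in undifferentiated stroma-like cells (4.37 to 6.58), at 78.6 against 420 CPM, while Mmp14 and Ctsk were within 2-fold; this is 1 of 3 lower and 0 higher, beside 18.4% and 8.59% of all genes.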

How the data were processed

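The deposited values are raw UMI counts for each gene and barcode. Per the file headers the authors used Cell Ranger 4.0.0, and per the submitters' processing notes the build was mm10. Cells with at least 500 genes and at most 20% mitochondrial UMIs were kept (1825 of 2775 barcodes). Scrublet (scanpy 1.11.5, expected rate 5%) marked 3 as doublets (0.164%), too few to count as doublet removal. Clusters came from Leiden (resolution 1, 15 neighbours, 30 components) on 2000 variable genes, after scaling each cell to 10000 and taking logs. Clustering used neither the 44 chains nor the 58 genes of the 4 lists, and no marker (175 in 22 sets) is among them. Each cluster was given the marker set that stood furthest above the median of the clusters in mean log2(CPM + 5). It needed 3 markers in at least 10% of cells. A cluster also stayed unnamed if at least 2 of its 10 leading genes were markers of another set and these outnumbered its own. The last ground was a median depth below 1/3 of the median of kept cells, with no marker of its set among those 10 genes. The unnamed cluster met this last ground.

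Set after clusters were seen were 3 rules: conceptus classes needed their lineage regulators, stromal clusters were divided at the middle of their score range, and monocyte, macrophage and dendritic clusters were joined. The division rests on few markers: the Dio3-poor decidual cluster had 3 detected and none among its 10 leading genes. In that cluster Bmp2 was at 12.6 CPM, below both undifferentiated clusters (20.6 and 26.1 CPM). Tdo2 (1401 against 18.8 and 30.9 CPM), Gja1, Dio3, Wnt4 and Cryab were above both.

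Counts were summed per class over all its UMIs (CPM), with exact Poisson intervals for levels and exact conditional binomial intervals for ratios, which cover counting error only. Shares of cells were also taken at 2000 UMIs per cell. Thinning to that depth left out cells with fewer UMIs, so thinned and unthinned values differ in cells as well as in depth. To be called, a gene needed 50 UMIs over both sides, a ratio of 2-fold in either direction and an interval clear of 1. The rule was tried on simulated sums that held only the counting error its intervals assume. That run cannot show how the rule fares with spread between cells, which was left out. The text names the chains with at least 50 UMIs and the 2 highest and 2 lowest ratios of each gene list, the latter for the stromal comparisons. The members and lists were chosen with earlier results of these data known. Coordinates are from GENCODE M21 (GRCm38, 1-based), matched by identifier for all 44 genes. Gly-X-Y stretches were counted in reading frames translated from its transcripts, and no protein table was used. Python 3.11.15, numpy 2.4.6, scipy 1.17.1, pandas 2.3.3 and igraph 0.11.9 were used.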

Additional observations from a re-analysis of the deposited data

Results flagged for a closer look

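Collagen UMIs were also found outside the classes compared. The unnamed cluster of 42 cells, led by H19, Igf2, Lin28a and Hand1, had a summed collagen level of 273 CPM (169 to 418) from 21 UMIs, above the 64.7 CPM (57.0 to 73.1) of the lymphocytes but within the interval of the T cell-like cells alone (272 to 499). The marker set that scored highest in this cluster was that of NK and innate lymphoid cells, with Il2rb at 768 CPM and Prf1 at 521 CPM. In NK and innate lymphoid-like cells these were at 1329 and 931 CPM. Hand1 was at 78.1 CPM in the unnamed cluster, whose median depth was 1276 UMIs. The 953 barcodes that did not pass the filters had 1970 CPM (1911 to 2030) against 2184 CPM in the kept cells, with basement membrane chains at 336 against 553 CPM and fibrillar chains at 1246 against 1243 CPM. Their part in the results was not tested beyond the analysis of all barcodes.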

How the results depend on the processing

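The call (higher, lower or neither) was recomputed for each measured chain under each alternative that applied to it. For chains called neither in both runs, direction was not compared. Of the calls for decidual against undifferentiated stroma-like cells, 215 were kept, 6 newly passed and 5 no longer passed the 2-fold rule. For stroma against other cells the numbers were 231, 2 and 1. With at most 10% mitochondrial UMIs the decidual fibrillar ratio reversed to 0.830, the basement membrane ratio was 0.498, 1 chain was higher in decidual cells, 0 chains were lower in stroma, the stromal fibrillar ratio was 10.7 and the endothelial basement membrane ratio 14.1. Thinning gave 1.32, 0.628, 5.69 and 8.21 for the same ratios. Subtracting lymphocyte CPM gave a stromal fibrillar ratio of 9.87, and a total without mitochondrial genes a decidual one of 1.16. At least 20 UMIs gave 5 higher chains, and at least 200 UMIs gave 3 lower chains, fewer being measured. The remaining settings were chosen after the data had been seen. Without the Dio3-poor cluster 1 chain was higher, with ratios of 1.002 and 0.511 (basement membrane); without the Dio3-rich cluster 1 chain was higher, with 1.31 and 0.677; without the shallower undifferentiated cluster the ratios were 1.03 and 0.521, and Col1a1 stood at 1.75. Without pericyte-like and mesothelium-like cells on the other side, 0 chains were lower in stroma, the fibrillar ratio was 90.1 and the endothelial ratio 19.0. No share over all genes is given beside the counts of chains called under these settings, so those counts have no background to be read against. The cause of these shifts was not tested. No paired analysis was possible because 1 library was analysed, and no replicate could be left out.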
